A study of Mus musculus with 6 samples.

Results

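A set of 8 transcription factor genes of the somite and its sclerotome was examined in rib cage RNA from mouse embryos: Pax1, Pax9, Nkx3-2, Meox1, Meox2, Tbx18, Uncx and Tcf15. The genes were chosen by name, as textbook regulators of somite and sclerotome development, and were matched by symbol to the gene IDs of the count table. The choice was made with earlier results of these data known. All 8 were found among its 55487 gene IDs, and all 8 were among the 26596 genes with enough reads to be tested. RNA-Seq libraries of whole rib cage at 16.5 days post coitum (dpc) came from 3 control embryos (E420, E434 and E435) and 3 mutant embryos (E423, E433 and E440).

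The labels give the mutant genotype as Col2-cre;Foxc1-/-;Foxc2-/- and call the controls wild type. In the study's methods, Foxc1 fl/fl;Foxc2 fl/fl females were mated to Col2-cre+/-;Foxc1+/Δ;Foxc2+/Δ males, themselves offspring of the floxed and the Col2-cre lines, so by this mating every embryo, controls included, received a floxed allele of each Foxc gene from its mother. The background was mixed, with C57B6 from the Col2-cre line and Black Swiss from the floxed line. The Col2-cre transgene drives the recombinase in cells of the cartilage lineage. In the hind limb the study also saw its activity in the perichondrium, which surrounds the cartilage, and in the primary ossification center. For the axial skeleton the study cites Col2-cre activity already in the sclerotome, before its cells condense. Cells of the rib cage in which the recombinase was never active keep both genes. The study compared littermates, but which embryos shared a litter is not given in the sources used here. The labels give no batch.

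Somites are blocks of paraxial mesoderm beside the neural tube. Signals from the notochord and floor plate turn their ventral part into sclerotome, which forms the vertebrae and ribs, while the dorsal part gives muscle and dermis and a region between them gives tendon. Pax1 and Pax9 are paired-box factors of the early sclerotome, Nkx3-2 is a homeobox factor that acts after them in the step from sclerotome to cartilage, Meox1 and Meox2 are homeobox factors of the whole somite, Uncx and Tbx18 mark the posterior and the anterior part of each somite, and Tcf15 is needed for somites to become epithelial. Foxc1 and Foxc2 also act in the paraxial mesoderm, and embryos without both form no somites. By 16.5 dpc the somites have long since given way to their derivatives, and several of these genes are also known outside them, such as Pax9 and Pax1 in pharyngeal pouch derivatives and Tbx18 in mural cells. The comparison asks how their RNA levels differed in rib cages that lost Foxc1 and Foxc2 in Col2-cre cells.

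Each library held between 37853988 and 47794799 counts. A level is given below in CPM, the counts of a gene relative to the depth of its library, scaled between libraries by the TMM method, and each end of a read pair was counted on its own, so a fragment usually gave 2 counts. At that rate 3 fragments equal between 0.126 and 0.159 CPM before that scaling. The targeted genes were lower in every mutant library. Foxc1 had 909, 1674 and 1175 counts in the controls (E420, E434, E435, the order used throughout), which equal between 23.1 and 36.9 CPM, and 148, 414 and 162 counts in the mutants (E423, E433, E440, in this order throughout), which equal between 3.51 and 9.61 CPM. Foxc2 was at 1.99, 4.83 and 3.22 CPM in the controls and at 0.650, 1.14 and 0.737 CPM in the mutants.

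The libraries did not stand equally far from each other. Among genes with at least 200 counts in a pair of libraries, the SD of the log2 ratio was 0.156 between controls E420 and E435 and 0.135 between mutants E423 and E440, and between 0.493 and 1.58 in the other 13 pairs. Counted as fragments, these pairs still differed by more than sampling, with a chi-square of 5.05 and 2.19 per gene where sampling alone gives about 1, and they were kept as separate samples. Control E434 and mutant E433 stood apart in their tissue markers. The 8 cartilage markers summed to 22953 CPM in E434 and 8361 CPM in E433, against 1622 and 1525 CPM in the other controls and 536 and 509 CPM in the other mutants. The 6 keratinocyte markers summed to 11.3 CPM in E434 and 3037 CPM in E433, against 4988 and 5824 CPM in the other controls and 26885 and 27021 CPM in the other mutants. The 5 hepatocyte markers summed to 573 CPM in mutant E433 and to between 28.7 and 45.0 CPM in the other 5 libraries, and the part of this RNA in the values of E433 was not tested. Cartilage and osteoblast markers of the labelled tissue were detected in every library. No list of markers held a gene at 0 in all libraries. Because the RNA is of whole tissue, fewer cells of a type and less RNA per cell cannot be told apart in any value below.

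Of the 8 genes, 7 had a lower mean in the mutants and Tbx18 had a higher one. Uncx, Pax9 and Meox1 had all 3 mutants below all 3 controls, by 3.81-fold, 2.63-fold and 1.82-fold. Over all genes tested, 8.21% had every mutant library below every control library. The median log2 fold change of the 8 genes was -0.98, against 0.01 over all genes tested. At the limits taken from the study's methods, an adjusted p under 0.1 with a log2 fold change past 1 or -1, edgeR's quasi-likelihood test called 0 of the 8 lower and 0 higher. The same test called 0.0301% of all genes lower and 0.0338% higher. At an unadjusted p under 0.05 it found 3 of the 8 lower, against 4.7% of all genes. The Wald test of DESeq2 called 2 of the 8 lower (Uncx and Pax9) and 0 higher, against 0.459% of all genes lower and 1.25% higher.

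**Figure D1:**
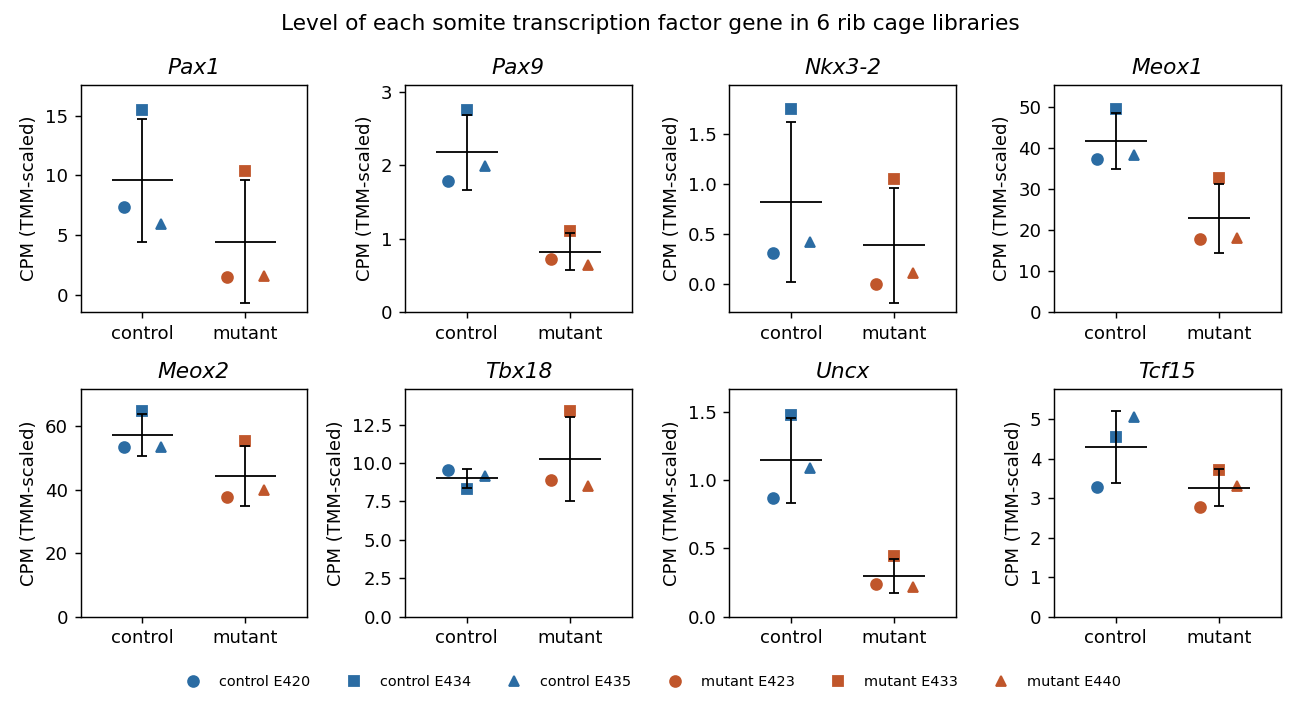
Level of each of the 8 genes in CPM (vertical axis, linear, a separate scale per panel) in 3 control libraries (blue) and 3 mutant libraries (orange), with a symbol per embryo, a horizontal line at the group mean and bars of 1 SD. In the Uncx, Pax9 and Meox1 panels every orange point lies below every blue point, while in the Pax1 and Nkx3-2 panels control E434 and mutant E433 (squares) lie above the other 4 libraries.

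Uncx, the marker of the posterior somite, showed the largest fold among the 8 genes. Controls had 0.865, 1.48 and 1.09 CPM, and mutants had 0.241, 0.441 and 0.217 CPM. The groups did not overlap, and the highest mutant was below the lowest control. The means were 1.15 ± 0.310 CPM and 0.299 ± 0.123 CPM (SD, n = 3 each), a log2 fold change of -1.93 (SE 0.37, p from edgeR 0.00161, adjusted over all genes 0.235). With DESeq2 the adjusted p was 0.00502. The counts behind these levels were 34, 67 and 53 in the controls and 10, 19 and 10 in the mutants, so each mutant value rests on few reads. The gene (ENSMUSG00000029546.12) lies on the plus strand at chr5:139543494-139548179 in GRCm38.

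The window of 250 bases before the RefSeq start of Uncx (GRCm38.p6, chr5:139543648-139543897) was searched for the forkhead core TAAACA, the SOX core ACAAAG and the GLI core GGGTGG on both strands. This start is not that of the counted gene: the window begins 154 bases inside it, and all 250 bases fall in the first exon of its longer GENCODE transcript. The window held the forkhead core once, at position 93 counted from 1 at the upstream end, and the GLI core once, at position 61. The forkhead core is shown because the targeted genes encode forkhead factors. The 30 bases around it, on the plus strand at chr5:139543728-139543757, read as follows, with capitals marking the match in its reverse form TGTTTA.
Uncx: agctcctgatacTGTTTAtggaggtgcgtg
Of 32851 RefSeq windows of this length, 12% held the forkhead core, 16.5% the SOX core and 28.1% the GLI core, so these are matches of letters and not evidence of binding.

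Tbx18, which marks the anterior part of the somite, did not share the lower level. It was at 9.57, 8.34 and 9.15 CPM in the controls and at 8.88, 13.4 and 8.52 CPM in the mutants. Mutants E423 and E440 lay within the range of the controls and mutant E433 lay above it. The means were 9.02 ± 0.626 CPM and 10.3 ± 2.74 CPM, a log2 fold change of 0.19 (SE 0.20, edgeR adjusted p 0.767), and without mutant E433 it was -0.048. The gene (ENSMUSG00000032419.8) lies on the minus strand at chr9:87702800-87731260. It shares 970 exon bases with D030062O11Rik on the other strand, and since strand was not used in counting, part of the reads of both cannot be assigned; D030062O11Rik held 82 counts over all libraries.

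Pax9, a factor of the ventral sclerotome, had 70, 125 and 97 counts in the controls, which equal between 1.78 and 2.76 CPM. In the mutants it had 30, 48 and 30 counts, which equal 0.722, 1.11 and 0.650 CPM. The groups did not overlap. The means were 2.18 ± 0.512 CPM and 0.829 ± 0.250 CPM, a log2 fold change of -1.39 (SE 0.29, p from edgeR 0.00237, adjusted over all genes 0.269). With DESeq2 the adjusted p was 0.00673. The gene (ENSMUSG00000001497.18) lies on the plus strand at chr12:56691767-56712822 and shares 189 exon bases with Slc25a21 on the other strand, a gene with 101 counts over all libraries. Pax9 also marks thymic epithelium in the pharyngeal pouches and is known in oesophageal epithelium. The 4 thymic epithelium markers summed to between 4.50 and 6.97 CPM in the controls and between 7.29 and 9.02 CPM in the mutants, and 1 of the 4 had a lower mean in the mutants. The 5 oesophageal markers summed to between 8.30 and 629 CPM in the controls and between 196 and 576 CPM in the mutants. Outside E434 most of this sum was Krt15, at 367, 0.816 and 404 CPM in the controls and at 397, 136 and 412 CPM in the mutants. Krt15 was lowest in E434 and E433 within their groups, as the keratinocyte markers were. Both sums were lowest in control E434, where Pax9 was at its highest and keratinocyte markers were lowest. In the thymic list this came from Foxn1, at 2.85, 0.0441 and 2.45 CPM in the controls and at 5.89, 0.928 and 4.23 CPM in the mutants. Foxn1 was thus lowest in E434 and E433 within their groups, as the keratinocyte markers were. Ccl25, Prss16 and Psmb11 were instead highest in E434 among the controls. Although the thymic sums did not overlap, the groups were apart in 0 of the 4 thymic markers. Of the 5 oesophageal markers, 1 had a lower mean in the mutants, the keratin gene Krt4. It was at 121, 0.949 and 128 CPM in the controls and at 13.5, 27.5 and 14.7 CPM in the mutants (log2 fold change -2.16, SE 1.31). Krt13, Krt15, Sox2 and Trp63 had higher means in the mutants, with log2 fold changes of 1.05, 0.29, 0.67 and 0.56. The part of these tissues in the Pax9 difference was not tested.

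Pax1, its close relative, had a lower mean in the mutants but groups that overlapped. It was at 7.36, 15.5 and 5.94 CPM in the controls and at 1.44, 10.4 and 1.52 CPM in the mutants. Mutants E423 and E440 were below every control, while mutant E433 was above controls E420 and E435. The means were 9.59 ± 5.14 CPM and 4.44 ± 5.13 CPM, a log2 fold change of -1.11 (SE 0.84, edgeR adjusted p 0.672, DESeq2 adjusted p 0.824). Without mutant E433 it was -2.69 (edgeR adjusted p 0.0392), and without control E434 it was -0.58. The gene (ENSMUSG00000037034.16) lies on the plus strand at chr2:147361925-147393295 and shares 183 exon bases with the antisense gene AI646519, which held 67 counts over all libraries.

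The windows before the RefSeq starts of Pax1 and Pax9 are shown together because both genes are known to answer to the same notochord signal, Shh, whose effectors are the GLI factors. On the plus strand of GRCm38.p6, the 250 bases before the RefSeq start lie at chr2:147364744-147364993 for Pax1 and at chr12:56695221-56695470 for Pax9. Both windows lie inside the genes as counted, whose longest spans begin at other transcripts: they start 2819 bases into Pax1 and 3454 bases into Pax9 and hold no annotated exon base of the gene. Capitals mark matches to the GLI core GGGTGG.
Pax1: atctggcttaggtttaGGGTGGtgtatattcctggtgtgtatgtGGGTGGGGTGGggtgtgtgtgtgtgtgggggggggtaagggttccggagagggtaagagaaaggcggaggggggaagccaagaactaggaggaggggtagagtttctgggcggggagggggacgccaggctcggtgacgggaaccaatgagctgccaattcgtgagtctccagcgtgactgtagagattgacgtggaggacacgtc
Pax9: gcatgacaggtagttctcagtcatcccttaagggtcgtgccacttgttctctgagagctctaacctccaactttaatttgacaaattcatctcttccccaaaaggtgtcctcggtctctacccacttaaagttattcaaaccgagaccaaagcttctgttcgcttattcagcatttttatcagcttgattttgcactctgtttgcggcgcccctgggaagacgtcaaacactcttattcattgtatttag
The Pax1 window held 3 matches to the GLI core, at positions 17, 45 and 50, of which the last pair overlap by a base, and no match to the forkhead or SOX core. Of all RefSeq windows 28.1% held the GLI core, so these too are matches of letters and not evidence of binding. The Pax9 window held none of the 3 motifs. The windows also differ in base composition, with 58.8% G and C for Pax1 and 43.6% for Pax9, against a median of 52.4% over all windows. RefSeq windows were given for 6 of the 8 genes, not for Meox1 and Tcf15. Those of Nkx3-2, Tbx18 and Meox2 held none of the 3 motifs, and their G and C content was 68.8%, 54% and 62%. The Nkx3-2 window lies within an annotated exon of its gene, while those of Tbx18 and Meox2 end at the start of the counted gene. No match says only that these letters are not in these 250 bases.

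Nkx3-2 had few reads outside the libraries E434 and E433. It had 12, 79 and 20 counts in the controls, which equal 0.305, 1.74 and 0.412 CPM. In the mutants it had 0, 45 and 5 counts, which equal 0, 1.04 and 0.108 CPM. The 0 in mutant E423 allows up to 3 fragments, which at 2 counts each equal 0.138 CPM, counting error only. The means were 0.820 ± 0.801 CPM and 0.384 ± 0.574 CPM, a log2 fold change of -1.10 with an SE of 1.27 (edgeR adjusted p 0.788, DESeq2 adjusted p 0.893). The difference was within the spread of each group, and without control E434 the log2 fold change was 0.09. The gene (ENSMUSG00000049691.8) lies on the minus strand at chr5:41761483-41764501.

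Meox1 and Meox2, homeobox factors of the somite that partly stand in for each other in axial skeleton and muscle, were the most abundant of the 8 genes. Control levels of Meox1 were 37.3, 49.6 and 38.3 CPM, and mutant levels were 17.9, 32.7 and 18.2 CPM. The groups did not overlap, and mutant E433 was the closest to the controls. The means were 41.7 ± 6.81 CPM and 23.0 ± 8.46 CPM, a log2 fold change of -0.86 (SE 0.26, p from edgeR 0.0147, adjusted over all genes 0.394). With DESeq2 the adjusted p was 0.0518, under the limit on the adjusted p but short of the limit on the fold; DESeq2 found 1.3% of all genes lower at that adjusted p regardless of fold. Meox1 (ENSMUSG00000001493.9) lies on the minus strand at chr11:101877510-101894374.

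Meox2 was at 53.4, 64.8 and 53.4 CPM in the controls and at 37.6, 55.2 and 40.0 CPM in the mutants. Mutant E433 was above controls E420 and E435, so the groups overlapped, while mutants E423 and E440 were below every control. The means were 57.2 ± 6.58 CPM and 44.3 ± 9.56 CPM, a log2 fold change of -0.37 (SE 0.17, edgeR adjusted p 0.497, DESeq2 adjusted p 0.464). Meox2 (ENSMUSG00000036144.6) lies on the plus strand at chr12:37108540-37179534.

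Tcf15, the basic helix-loop-helix factor of epithelial somites, was at 3.28, 4.55 and 5.07 CPM in the controls and at 2.79, 3.71 and 3.32 CPM in the mutants. Mutants E433 and E440 were above control E420, so the groups overlapped. The means were 4.30 ± 0.919 CPM and 3.27 ± 0.463 CPM, a log2 fold change of -0.39 (SE 0.21, edgeR adjusted p 0.549, DESeq2 adjusted p 0.629). In contrast to the other genes with a lower mean in the mutants, its highest control was E435, not E434. Tcf15 (ENSMUSG00000068079.5) lies on the plus strand at chr2:152143561-152149097.

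Levels of different genes were compared per length, by the TPM values (abundance per transcript length and library depth) that the authors deposited from RSEM. In the controls Meox2 was highest at 35.0 ± 4.55 TPM, followed by Meox1 at 27.3 ± 4.82 TPM, and the ranges of these genes touched (32.1 to 40.3 and 24.3 to 32.9 TPM). Tcf15 at 7.15 ± 1.41 TPM and Pax1 at 5.28 ± 2.86 TPM came next and overlapped in range. Tbx18 stood at 2.98 ± 0.235 TPM, below every control value of Pax1. The lowest were Pax9 at 0.823 ± 0.180 TPM, Uncx at 0.677 ± 0.204 TPM and Nkx3-2 at 0.663 ± 0.683 TPM, whose ranges overlapped. In the mutants the order of Pax1 and Tbx18 was the other way round, with 2.45 ± 2.89 TPM for Pax1 and 3.29 ± 1.16 TPM for Tbx18, and the ranges overlapped. Pax9 was at 0.307 ± 0.150 TPM and Uncx at 0.177 ± 0.0896 TPM there. With counts per kilobase, scaled to depth, in place of TPM, Nkx3-2 came before Pax9 and Uncx in both groups.

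Ratios within a library do not depend on its scaling. Within each library, counts per kilobase were therefore set against each other for 4 pairs of genes, chosen with the values known. The ratio of the posterior marker Uncx to the anterior marker Tbx18 was 0.136, 0.267 and 0.180 in the controls and 0.0408, 0.0494 and 0.0383 in the mutants. Its means were 0.194 ± 0.0665 and 0.0428 ± 0.00582. The mutant ratios were all below the control ratios and close together, although mutant E433 differed from the other mutants in the level of both genes. The ratio of Meox1 to Meox2 was 0.740, 0.810 and 0.761 in the controls and 0.506, 0.628 and 0.482 in the mutants, with means of 0.770 ± 0.0364 and 0.538 ± 0.0782. For both ratios the exact permutation test, 2-sided over 20 regroupings, gave p = 0.1, the smallest it can give with 3 libraries against 3, and 0.2 after Benjamini-Hochberg adjustment over the 4 ratios. Because the pairs were chosen with the values known, and Uncx and Meox1 already had the groups apart, these p-values only describe the ratios.

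The ratios with Pax1 as the denominator did not separate the groups. The ratio of Pax9 to Pax1 was 0.215, 0.158 and 0.299 in the controls and 0.444, 0.0954 and 0.381 in the mutants (exact permutation p = 0.5, adjusted 0.667). It was lowest in E434 and E433 within their groups. The ratio of Nkx3-2 to Pax1 was 0.109, 0.295 and 0.182 in the controls and 0, 0.263 and 0.187 in the mutants (exact permutation p = 0.7, adjusted 0.7). It was highest in E434 and E433.

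**Figure D2:**
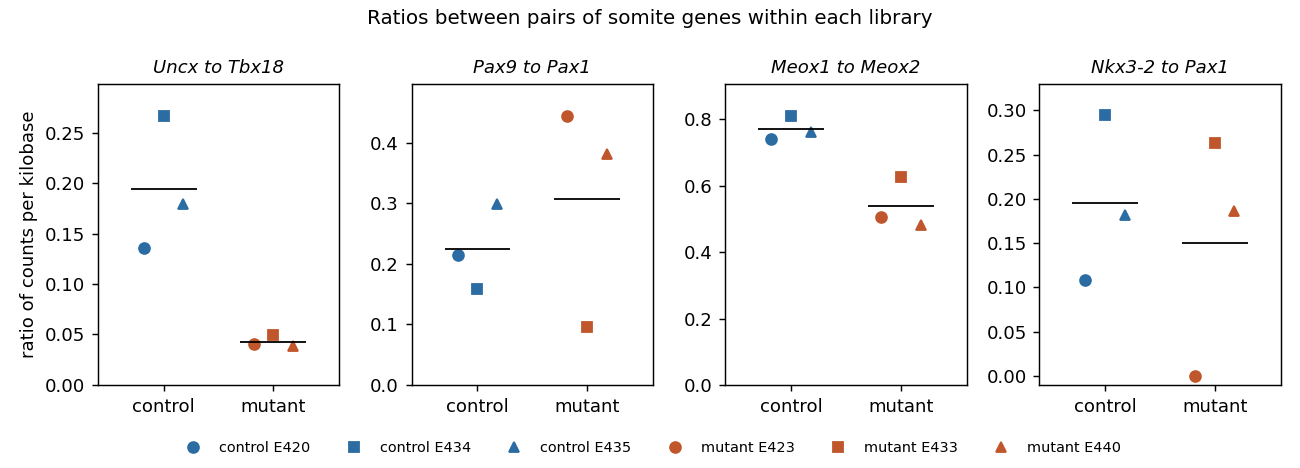
Ratio of counts per kilobase of exon between 4 pairs of genes (vertical axes, linear) within each of 3 control libraries (blue) and 3 mutant libraries (orange), with a line at the group mean. The ratios of Uncx to Tbx18 and of Meox1 to Meox2 are lower in every mutant than in every control, and the other ratios overlap.

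The level of several of the 8 genes moved with the level of cartilage RNA across libraries. The 8 cartilage markers all had a lower mean in the mutants (median log2 fold change -1.32), but in 0 of 8 were the groups apart, and their mean log2 CPM was 6.46, 10.27 and 6.40 in the controls and 4.99, 8.90 and 4.97 in the mutants. The log2 ratio of Pax1 to its control mean was -0.25, 0.81 and -0.56 in the controls and -2.57, 0.24 and -2.50 in the mutants, in the same order of libraries as the cartilage markers, apart from mutants E423 and E440, which were close in both. For Nkx3-2 these ratios were -0.91, 1.44 and -0.53, and -3.86, 0.72 and -2.10. Uncx had ratios of -0.35, 0.39 and -0.03 in the controls and -2.03, -1.26 and -2.15 in the mutants. Mutant E433, with more cartilage RNA than controls E420 and E435, was thus above them for Pax1 and Nkx3-2 and below them for Uncx, Pax9 (-0.92) and Meox1 (-0.34). Keratinocyte markers ran the other way, and all 6 had a higher mean in the mutants. The fits that follow take these marker levels as covariates. Because the marker levels come from the same libraries and differ in mean between the groups, the fits cannot tell tissue share and genotype apart.

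**Figure D3:**
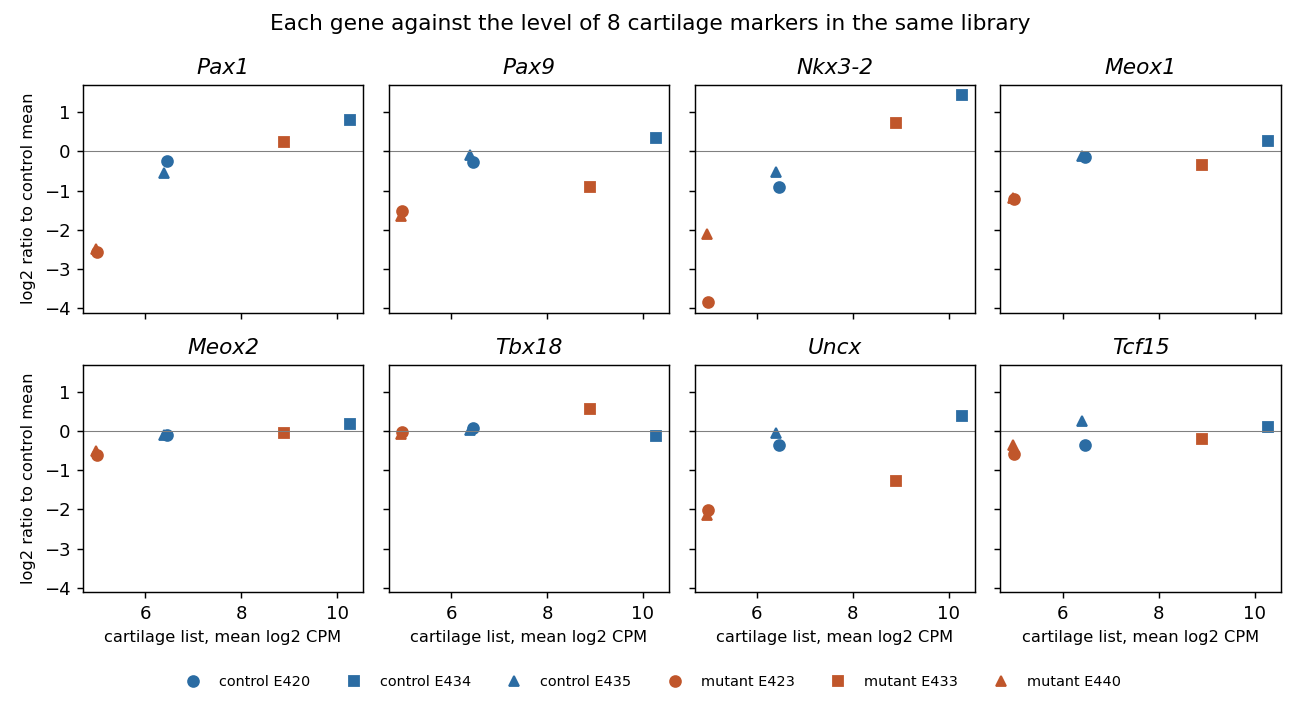
Log2 ratio of each gene to its control mean (vertical axis) against the mean log2 CPM of 8 cartilage markers in the same library (horizontal axis), for 3 controls (blue) and 3 mutants (orange). Mutant E433 (orange square) lies above controls E420 and E435 in the Pax1 and Nkx3-2 panels and below them in the Uncx, Pax9 and Meox1 panels.

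With the cartilage level as a covariate in the edgeR model, 2 of the 8 genes were called lower, against 0.267% of all genes. These were Uncx, with a log2 fold change of -1.69 (adjusted p 0.0590), and Pax9, with -1.18 (adjusted p 0.0552). Meox1 was at -0.68 (adjusted p 0.0562), Pax1 at -0.83 (adjusted p 0.330) and Nkx3-2 at -0.45 (adjusted p 0.798). With the keratinocyte level as the covariate, an alternative added after the values were seen, 0 of the 8 genes were called against 0.229% of all genes. Uncx was then at -1.45 (adjusted p 0.188), Pax9 at -0.96 (adjusted p 0.207), Meox1 at -0.47 (adjusted p 0.397), Pax1 at -0.06 (adjusted p 0.981) and Nkx3-2 at 0.81.

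Without mutant E433 alone, edgeR called 4 of the 8 genes lower against 1.37% of all genes, and without any other single library it called 0. Without control E434 and mutant E433 together the remaining libraries are the close pairs, and edgeR called 5 of the 8 genes lower against 2.59% of all genes. The log2 fold changes were then -2.09 for Uncx (adjusted p 0.000412), -1.46 for Pax9 (adjusted p 0.00017), -1.06 for Meox1 (adjusted p 9.33e-11), -2.16 for Pax1 (adjusted p 2.81e-09) and -2.61 for Nkx3-2 (adjusted p 0.0209). Meox2 was at -0.46 (adjusted p 2.72e-06), short of the limit on the fold, and Tbx18 was at -0.10 (adjusted p 0.520). These p-values measure only the spread within each close pair. With each close pair summed to 1 library, edgeR called 0 of the 8 genes and 0% of all genes, with log2 fold changes of -1.91 for Uncx, -1.39 for Pax9 and -0.79 for Meox1.

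**Figure D4:**
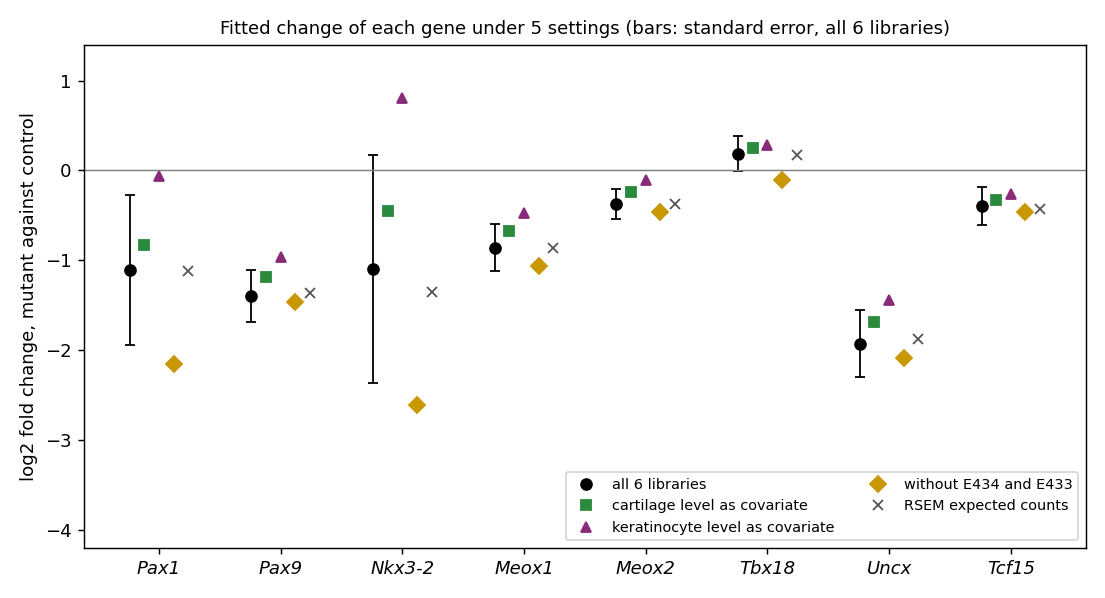
Fitted log2 fold change, mutant against control (vertical axis), of the 8 genes under 5 settings, with bars of 1 standard error for the fit of all 6 libraries. Uncx, Pax9, Meox1, Meox2 and Tcf15 lie below 0 under each setting shown, Pax1 is near 0 with the keratinocyte covariate, and Nkx3-2 runs from -2.61 to 0.81.

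The 8 genes did not form a single pattern over the 6 libraries. Likeness was measured as the root mean square distance between log2 CPM profiles, each centred on its own mean, over the 6 libraries. The closest pairs among the 8 were Meox2 with Tcf15 (0.204), Pax9 with Uncx (0.237), Pax9 with Meox1 (0.246) and Meox1 with Meox2 (0.290). By this measure genes that differ little between libraries stand close together. Meox2 and Tcf15 are such genes, and their highest controls were different libraries, E434 and E435. Pax1 was nearest to Nkx3-2, at a distance of 0.690, and Nkx3-2 and Tbx18 were the farthest apart, at 1.69. The distances of Nkx3-2 rest on few reads, with 12 and 20 counts in controls E420 and E435 and 0 and 5 counts in mutants E423 and E440.

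Among 13950 protein-coding genes with a mean of at least 1 CPM, the nearest to Pax9 were Cfap74 (0.132), the tendon factor gene Mkx (0.134) and Rspo2, which encodes a secreted activator of Wnt signaling (0.163). The nearest to Meox1 were Stk26 (0.0621), Ntrk2 (0.0667) and Sfrp1 (0.0736). The nearest to Pax1 were Stk32b (0.273), Fmod, which encodes a proteoglycan of tendon and cartilage (0.283), and Sim2 (0.292). Pax1, whose level varied more between libraries, thus had no neighbour as close as those of Pax9 and Meox1. The nearest to Meox2 were Kdelr2, Pomgnt2 and Wdr35 (0.0183 to 0.0256), those to Tbx18 were Eif2s3x, Rad9b and Pnmal1 (0.0300 to 0.0606), and those to Tcf15 were Zfp580, Zfp493 and Nudt16 (0.0400 to 0.0994). Many genes differ little between libraries, so distances are small for genes with flat profiles. Uncx and Nkx3-2, with means under 1 CPM, were left out of this search for nearest genes.

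Genes that act before, beside and after the 8 in somite development were taken from lists. Of 11 genes of somite segmentation, 9 were tested, edgeR called 0 in either direction, and the median log2 fold change was -0.03. Their summed level was between 78.7 and 82.1 CPM in the controls and between 77.4 and 79.2 CPM in the mutants. Lfng, Dll1 and Epha4, the Notch and Eph pathway genes with most of that level, had log2 fold changes of -0.06, 0.08 and -0.06. In 1 gene of the list, Dll3, every mutant was above every control in CPM, as in 6.81% of all genes tested. Its means were 0.175 CPM in the mutants and 0.0592 CPM in the controls. These values rest on few reads, with 2, 2 and 4 counts in the controls and 9, 4 and 10 counts in the mutants.

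Of 9 genes of the signals that induce sclerotome, edgeR called 0 and in 0 were the groups apart, with a median log2 fold change of -0.05. The hedgehog targets Gli1 and Ptch1 had log2 fold changes of 0.09 (SE 0.10) and 0.25 (SE 0.20). Shh itself was at 2.01, 0.0662 and 1.86 CPM in the controls and at 8.32, 1.14 and 9.62 CPM in the mutants, with a log2 fold change of 2.28 (SE 1.11). It was lowest in E434 and E433 within their groups, as the keratinocyte markers were, and the part of keratinocyte RNA in it was not tested. Noggin (Nog), Grem1 and Chrd, inhibitors of BMP signaling, were at -0.09, -0.05 and -0.27.

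All 6 genes of the cartilage program that follows Pax1, Pax9 and Nkx3-2 had a lower mean in the mutants, edgeR called 0 of them, and the groups overlapped in each. Sox9, the main cartilage regulator, had a log2 fold change of -0.41 (SE 0.82), its partners Sox5 and Sox6 of -0.53 (SE 0.79) and -0.01 (SE 0.23), and their target Col2a1 of -1.57 (SE 1.76). In all 6 the SE was larger than the log2 fold change.

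All 3 genes of the syndetome, the tendon-forming part of the somite, were lower in every mutant than in every control, as were Uncx, Pax9 and Meox1. Over all genes tested this held for 8.21%. Scx, the early tendon factor, was at 23.5, 33.9 and 28.9 CPM in the controls and at 16.7, 19.6 and 17.8 CPM in the mutants, with a log2 fold change of -0.67 (SE 0.15, edgeR adjusted p 0.305, DESeq2 adjusted p 0.0122). Mkx was at 10.5, 14.1 and 10.2 CPM in the controls and at 3.29, 6.20 and 3.84 CPM in the mutants, with a log2 fold change of -1.39 (SE 0.27, edgeR adjusted p 0.244, DESeq2 adjusted p 0.000129). Tnmd, which encodes a membrane protein of tendon cells, was at 90.1, 148 and 92.2 CPM in the controls and at 48.6, 67.2 and 48.4 CPM in the mutants, with a log2 fold change of -1.01 (SE 0.23, edgeR adjusted p 0.325, DESeq2 adjusted p 0.0034). EdgeR called 0 of the 3, and DESeq2 called 2 (Mkx and Tnmd), against 0.459% of all genes called lower by DESeq2.

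Of 5 genes of the dermomyotome, the part of the somite that gives muscle and dermis, edgeR called 0, and in 2 every mutant was below every control. The share of all genes tested with every mutant below every control was 8.21%. Myf5, an early muscle regulator, had a log2 fold change of -0.38 (SE 0.14) and En1 of -0.23 (SE 0.13). Pax3 and Pax7, paired-box factors of muscle progenitors, were at 0.49 (SE 0.32) and -0.20 (SE 0.18). The targeted genes themselves had log2 fold changes of -2.34 (SE 0.45) for Foxc1 and -1.99 (SE 0.39) for Foxc2, with edgeR adjusted p-values of 0.235 and 0.239 and DESeq2 adjusted p-values of 1.17e-06 and 0.000251. At this spread between libraries edgeR thus called neither deleted gene.

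Markers of other cell types in which some of the 8 genes are known were set beside them. The 6 mural cell markers, relevant to Tbx18, summed to between 366 and 560 CPM in the controls and between 353 and 478 CPM in the mutants, with a median log2 fold change of -0.11 and the groups apart in 0 of 6. The 6 endothelial markers, relevant to Meox2, summed to between 403 and 512 CPM in the controls and between 390 and 492 CPM in the mutants, with a median of -0.04 and the groups apart in 0 of 6. The 7 osteoblast markers were all lower in every mutant than in every control, as were Uncx, Pax9 and Meox1, with sums between 11419 and 16546 CPM in the controls and between 7964 and 8354 CPM in the mutants and a median log2 fold change of -1.32. The 5 adipocyte markers were all higher in every mutant, with sums between 133 and 145 CPM in the controls and between 201 and 625 CPM in the mutants. Among all genes tested, 8.21% were lower and 6.81% higher in every mutant than in every control. The 6 skeletal muscle markers summed to between 10370 and 18101 CPM in the controls and between 13840 and 25236 CPM in the mutants. The part of osteoblast, adipocyte and muscle RNA in the levels of the 8 genes was not tested.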

How the data were processed

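The authors sequenced rib cage RNA of 3 control and 3 mutant embryos (stranded mRNA libraries, both ends sequenced). The authors aligned reads to GRCm38 with HISAT2 2.1.0 and deposited raw counts per gene from featureCounts 1.6.0 on GENCODE exons, with each end counted on its own and strand not used. From STAR 2.7.6 and RSEM 1.2.31 the authors also deposited expected counts and TPM per gene, where a fragment with several possible genes is split between them. The versions are those of the submitters' processing notes. The authors' own comparison tables, which hold DESeq2 fold changes and p-values, and 12 per-sample columns in them were not used.

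Of 55487 gene IDs, 55141 had a symbol in an older GENCODE release on the same build. Genes needed 10 counts or more over all 6 libraries, which 26596 had. EdgeR 4.0.16 in R 4.3.3 was used for TMM scaling and the quasi-likelihood test, with Benjamini-Hochberg adjustment over all genes tested. Limits were an adjusted p of 0.1 and a log2 fold change of 1. The SE is the log2 fold change divided by the square root of its F value. Log2 CPM used a prior count of 2. DESeq2 1.42.0 was an alternative. Only the edgeR comparison of the groups was tried on simulated data. The simulated libraries were independent, with a common dispersion and without close pairs or tissue differences.

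The 8 genes and all lists were chosen with earlier results of these data known. Genes named are the 8, the targeted genes, genes of the lists, genes that overlap the 8, and for each of the 8 with a mean of at least 1 CPM the 3 genes nearest in pattern. The pairs of genes in the ratios, the keratinocyte covariate and the summing of close libraries were chosen after the values were seen. Each replicate is an embryo. Intervals cover counting error only, and PCR copies cannot be told apart. Protein identity between the paralogs was not analysed here. Some genes of the lists are not reported here.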

Additional observations from a re-analysis of the deposited data

How the results depend on the processing

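EdgeR called 0 of the 8 genes lower with all 6 libraries, 2 with the cartilage covariate, 5 without control E434 and mutant E433 together, and between 0 and 4 when a library was left out, the 4 (Uncx, Pax9, Meox1 and Pax1) without mutant E433, where 1.37% of all genes were called lower. DESeq2 called 2. DESeq2's size factors, filterByExpr, no low-count filter, no limit on the fold, rounded RSEM expected counts, the keratinocyte covariate and summing the close libraries gave 0, and 0 were called higher under any of these settings. The median log2 fold change of the 8 genes, -0.98, was between -1.43 and -0.47 when a library was left out and -0.19 with the keratinocyte covariate. Nkx3-2 reversed with the keratinocyte covariate (0.81) and without control E434 (0.09), and ranged from -3.80 to 0.09 when a library was left out. Tbx18 reversed without mutant E433 (-0.048) and without E434 and E433 together (-0.10), and ranged from -0.048 to 0.31 when a library was left out. The other 6 genes kept their direction under all 15 alternatives, with log2 fold changes of -2.31 to -1.45 for Uncx, -1.66 to -0.96 for Pax9, -1.20 to -0.47 for Meox1, -2.69 to -0.06 for Pax1, -0.56 to -0.11 for Meox2 and -0.55 to -0.26 for Tcf15. Where leaving out a library left a group with 2, the spread was taken from all remaining libraries. The cause of these shifts was not tested. No paired analysis was possible because the embryo numbers pair no control with a mutant and the litters are not given. Counts of 0 to 20 for Nkx3-2 in 4 of the 6 libraries, and of 10 to 19 for Uncx in the mutants, limit the precision for these genes.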

Other observations

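Relatives and co-factors of the 8 genes were examined as a further list of 9 genes, of which 8 were tested and edgeR called 0 in either direction. Tbx15, a T-box relative of Tbx18 known for its role in skeletal growth, was higher in every mutant than in every control, with means of 72.4 ± 11.2 CPM and 112 ± 10.4 CPM (SD, n = 3 each), a log2 fold change of 0.63 (SE 0.13, edgeR adjusted p 0.27, DESeq2 adjusted p 0.00495). Tbx18 itself had a log2 fold change of 0.19 (SE 0.20). The mutants were all below the controls for Six2, Eya1 and Twist1, which encode regulators of mesenchymal progenitors, with log2 fold changes of -0.70, -0.45 and -0.18. Their edgeR unadjusted p-values were 0.0447, 0.0231 and 0.0384. Zic1 was at 0.42, with groups that overlapped. Over all genes tested, every mutant was below every control in 8.21% and above in 6.81%.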
